A study of Mus musculus with 12 samples.

Results

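Tumour libraries of mice that received Ru-PD-L1, a PD-L1 antibody joined to a catalyst, were compared with libraries of mice that did not, over all 12 libraries of the series. The 6 libraries with the conjugate came from the groups RP, R+X and R+D, and the 6 without it from Ctrl, DOX and DPD, with 2 libraries in each of the 6 groups. Each conjugate group was set beside the group given the same drug, so that RP minus Ctrl had no drug, R+X minus DOX had DOX and R+D minus DPD had DPD. Genes are described where their difference had the same sign in all 3 of these drug settings, apart from a fixed panel and the genes of the interaction test.

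All tumours were MC38, a mouse colon carcinoma line implanted under the skin of the left flank of C57BL/6J mice aged 8 weeks, and all were taken on day 20. RP was read as 20 µg of Ru-PD-L1 alone (0.80 mg/kg), given into the peritoneum every 3 days from day 9. R+X was taken to be Ru-PD-L1 followed after 6 hours by 14 µg of DOX (0.56 mg/kg) injected beside the tumour, and R+D as Ru-PD-L1 followed in the same way by 14 µg of DPD, with the dose of the conjugate in these combinations not stated. The reading of R+X and R+D rests on the letter X, which occurs in DOX and not in DPD. Ctrl mice received PBS, DOX mice 14 µg of DOX and DPD mice 14 µg of DPD, the doxorubicin prodrug of the series title, all into the peritoneum on the same days. The drug was therefore given beside the tumour in both combined groups and into the peritoneum in DOX and DPD, so conjugate and drug route cannot be told apart in these settings. Nothing in the labels says that both libraries of a group are from different mice, so every p-value measures the spread between these samples, and that spread may be technical.

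PD-L1 is a surface ligand that restrains T cells through the receptor PD-1, and tumour cells display more of it when they sense interferon gamma. Interferon gamma, released by activated T cells and NK cells, acts on promoters that hold gamma-activated sites (GAS), and induces guanylate-binding proteins, immunity-related GTPases and the chemokines that draw further T cells. Type I interferons act mainly on interferon-stimulated response elements (ISRE) and induce antiviral genes such as the Ifit and Oas families. Doxorubicin poisons topoisomerase II and causes DNA breaks, which activate p53 and repair genes.

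The promoters of 4 genes that the results turn on are printed because they show a GAS match and ISRE core matches in genes of the interferon gamma list, and ISRE core matches in genes of the antiviral list. Each sequence is the 250 bases before the start of the gene, on the strand of the gene, from the RefSeq promoter table of GRCm38.p6. Capitals mark a GAS match (TTCNNNGAA) in Serpina3g, a serine protease inhibitor gene, and ISRE core matches (GAAANNGAAA, read on either strand) in Gbp2, a guanylate-binding protein gene, and in the antiviral genes Ifit1 and Rsad2. Serpina3g lies at chr12:104235897-104236146 on the + strand, Gbp2 at chr3:142620413-142620662 on the + strand, Ifit1 at chr19:34640639-34640888 on the + strand and Rsad2 at chr12:26456453-26456702 on the - strand.
Serpina3g: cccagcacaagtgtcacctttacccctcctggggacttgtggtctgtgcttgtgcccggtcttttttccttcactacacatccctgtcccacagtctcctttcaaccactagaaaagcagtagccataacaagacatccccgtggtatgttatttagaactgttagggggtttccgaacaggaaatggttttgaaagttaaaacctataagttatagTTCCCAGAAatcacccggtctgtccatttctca
Gbp2: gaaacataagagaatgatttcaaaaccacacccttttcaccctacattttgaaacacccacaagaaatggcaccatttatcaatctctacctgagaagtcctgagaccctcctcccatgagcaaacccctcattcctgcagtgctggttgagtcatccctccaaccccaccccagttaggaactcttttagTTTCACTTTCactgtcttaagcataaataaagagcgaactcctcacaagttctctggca
Ifit1: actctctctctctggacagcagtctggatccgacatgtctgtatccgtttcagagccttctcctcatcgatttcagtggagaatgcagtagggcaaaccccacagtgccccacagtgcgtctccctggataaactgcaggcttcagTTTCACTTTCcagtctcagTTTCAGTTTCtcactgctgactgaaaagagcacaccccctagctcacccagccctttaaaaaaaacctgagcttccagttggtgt
Rsad2: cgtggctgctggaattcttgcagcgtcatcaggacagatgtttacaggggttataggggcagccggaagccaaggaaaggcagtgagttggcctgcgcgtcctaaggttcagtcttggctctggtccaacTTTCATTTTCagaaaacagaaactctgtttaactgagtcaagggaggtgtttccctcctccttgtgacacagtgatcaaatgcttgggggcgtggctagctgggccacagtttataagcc
Both motifs were searched on both strands of the same 250 bases. Among 13660 tested genes with a promoter in the table, 7.34% held a GAS match and 3.32% an ISRE core match. Of the 19 interferon gamma response genes with a promoter there, 9 held a GAS match (47.4%) and 11 an ISRE core match (57.9%). Of the 18 antiviral genes with one, 2 held a GAS match (11.1%) and 8 an ISRE core match (44.4%). Among named members whose promoter is not printed, Ubd of the interferon gamma list held neither match. Oas1a of the antiviral list held 1 GAS match and 2 ISRE core matches. These matches describe letters in the window and not binding.

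Over all genes, no gene reached an adjusted p under 0.05 (Benjamini-Hochberg) in the edgeR quasi-likelihood test with drug as a block. Of 19525 genes tested, 0 were called higher (0%) and 0 lower (0%), with a smallest adjusted p of 0.185. At an unadjusted p under 0.05, 2076 genes were higher with the conjugate (10.6%) and 2030 were lower (10.4%). DESeq2 called 394 genes higher (2.02%) and 358 lower (1.83%), and limma-voom called 0 either way with 2435 and 1807 genes at an unadjusted p under 0.05. The same sign in all 3 drug settings was shared by 9717 genes (49.8%), 25.6% higher and 24.1% lower. Only 46 genes (0.236%) had all 6 conjugate libraries above all 6 without it, and 15 (0.0768%) had all 6 below.

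The 3 drug settings did not contribute alike in size. The median absolute log2 fold change was 0.41 in RP minus Ctrl, 0.22 in R+X minus DOX and 0.16 in R+D minus DPD. Library totals ran from 46547114 to 56462259 counts, and the biological coefficient of variation in the fit was 0.259. The TMM scaling factors ran from 0.999 to 1.07 with the conjugate and from 0.894 to 1.05 without it. The median correlation of libraries was 0.975 within groups and 0.974 between groups. Libraries of one group differed by more than counting noise in every group, with chi-square values per degree of freedom between 14.1 (R+X) and 231 (DOX). In bulk tumour RNA, fewer cells of a type and less RNA per cell cannot be told apart, which applies to every marker below.

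The 5 genes of smallest p on the higher side were Gja4, Mb, Serpina3g, Cdc7 and Wdr90. These genes, those leading the lower side and the list members below were chosen by small p and a shared sign in the same data. Separation of their pairs therefore adds no support, and its share over all genes was not counted. Gja4, at chr4:127311420-127314039 on GRCm38, encodes connexin 37, a gap junction protein of the endothelium. It stood at 40.2 and 31.7 CPM (counts scaled by TMM to a common library size) in RP against 7.57 and 7.13 CPM in Ctrl, at 10.1 and 6.56 CPM in R+X against 5.95 and 4.19 CPM in DOX, and at 23.3 and 28.2 CPM in R+D against 9.15 and 12.8 CPM in DPD. The pairs did not overlap in any drug setting, but R+X lay within the range of the libraries without the conjugate. The log2 fold change over all 12 libraries was 1.42 ± 0.24 (SE, edgeR adjusted p = 0.185), and it was 2.29 in RP minus Ctrl, 0.72 in R+X minus DOX and 1.23 in R+D minus DPD.

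Serpina3g, at chr12:104236147-104241939, carries the GAS match printed above and sits in a cluster of near-identical copies, so its counts may hold reads of relatives. Its level was 131 and 134 CPM in RP against 53.7 and 44 CPM in Ctrl, 60.2 and 53 CPM in R+X against 36.3 and 43.5 CPM in DOX, and 102 and 94.7 CPM in R+D against 70.2 and 69 CPM in DPD. Each conjugate pair lay above its own counterpart, and the DPD libraries lay above both R+X libraries. The log2 fold change was 0.81 ± 0.15 (SE, edgeR adjusted p = 0.185), with 1.44 in RP minus Ctrl, 0.50 in R+X minus DOX and 0.50 in R+D minus DPD.

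Cdc7, at chr5:106964315-106984440, encodes the kinase that fires origins of DNA replication. It measured 31.7 and 39.3 CPM in RP against 21.5 and 20.6 CPM in Ctrl, 24.1 and 26.5 CPM in R+X against 16.7 and 17.8 CPM in DOX, and 28.3 and 34.4 CPM in R+D against 18 and 26.6 CPM in DPD. Here the 3 settings gave similar differences, with log2 fold changes of 0.75 in RP minus Ctrl, 0.55 in R+X minus DOX and 0.49 in R+D minus DPD. Wdr90, at chr17:25844734-25861515, encodes a WD repeat protein of the centriole, and had a lowest, median and highest level of 64.7, 84.1 and 91.9 CPM with the conjugate, against 46.8, 53.8 and 71.4 CPM without it. Its log2 fold changes were 0.80 in RP minus Ctrl, 0.37 in R+X minus DOX and 0.39 in R+D minus DPD, and every conjugate pair lay above its counterpart. Over all 12 libraries the log2 fold change was 0.60 ± 0.11 for Cdc7 and 0.52 ± 0.10 for Wdr90 (SE, edgeR adjusted p = 0.185 for each).

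Mb, at chr15:77015487-77050668, encodes myoglobin, the oxygen store of muscle fibres. It stood at 6.06 and 1.78 CPM in RP against 0.491 and 0.325 CPM in Ctrl, at 0.766 and 0.402 CPM in R+X against 0.176 and 0.081 CPM in DOX, and at 0.991 and 6.26 CPM in R+D against 0.643 and 0.511 CPM in DPD. One RP and one R+D library were the highest, and the log2 fold change was 2.75 ± 0.49 (SE, edgeR adjusted p = 0.185). These were also the 2 libraries with the highest summed muscle transcripts, which are described further on.

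The lower side was led by the 4 adult haemoglobin genes and Ociad2. Hba-a1 (alpha globin, chr11:32283672-32284486) stood at 15.3 and 24.6 CPM in RP against 65 and 75.6 CPM in Ctrl, at 9.91 and 15.9 CPM in R+X against 118 and 83.8 CPM in DOX, and at 6.13 and 9.5 CPM in R+D against 37 and 7.8 CPM in DPD. The DPD libraries differed from each other by more than the R+D libraries did, and DPD replicate 2 lay between the 2 R+D libraries. Its log2 fold change was -2.10 ± 0.36, beside -2.06 ± 0.36 for Hba-a2 (alpha globin, chr11:32296492-32297310), -2.11 ± 0.38 for Hbb-bs (beta globin, chr7:103826523-103827928) and -1.99 ± 0.37 for Hbb-bt (beta globin, chr7:103812524-103813923) (SE, edgeR adjusted p = 0.185 for each). The 2 alpha globin genes are near-identical copies, as are the 2 beta globin genes, so reads could have been split between them and the 4 values are not independent.

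Ociad2, an OCIA domain gene at chr5:73322198-73338947, measured 13.8 and 15.2 CPM in RP against 23.8 and 29.9 CPM in Ctrl, 20.7 and 21.7 CPM in R+X against 29.3 and 26.1 CPM in DOX, and 13 and 15.2 CPM in R+D against 21.1 and 17.8 CPM in DPD. All 3 conjugate pairs lay below their counterparts, and the log2 fold change was -0.58 ± 0.11 (SE, edgeR adjusted p = 0.185). The summed red blood cell list reached 30.4 to 93.9 CPM (median 53.2) in libraries with the conjugate, against 33.1 to 382 CPM (median 254) without it. Without DPD replicate 1, only 1 of the 7 tested red blood cell genes was lower in all 3 settings. The log2 fold change of Hba-a1 was then -1.91. With DPD replicate 2 left out, edgeR called 240 genes higher (1.16% of 20696 tested) and 241 lower (1.16%), the haemoglobin genes among them.

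**Figure D1:**
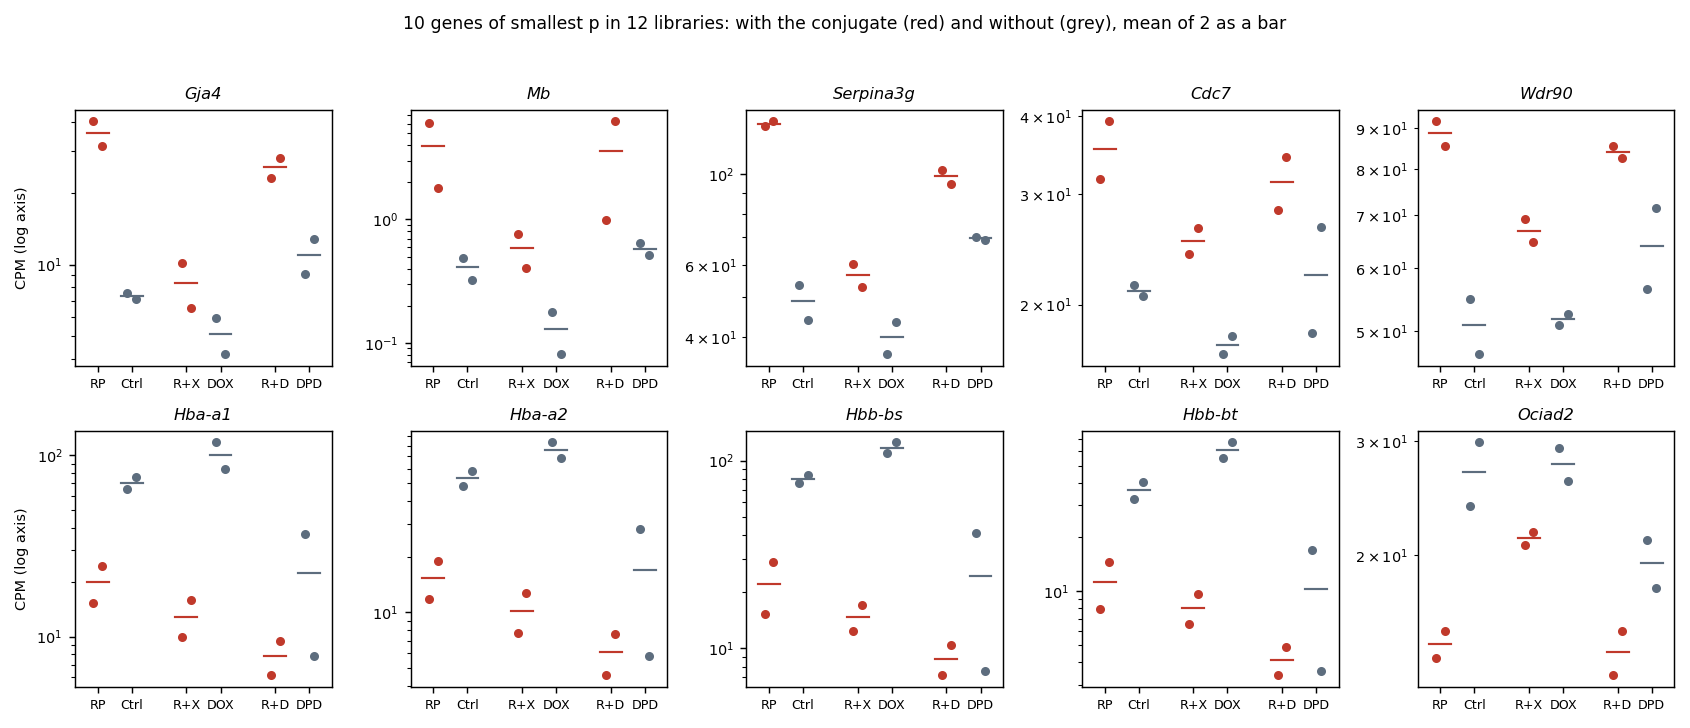
Level in CPM (log axis) of the 5 genes of smallest p on each side, in the 12 libraries. Points are libraries with the conjugate in red (RP, R+X, R+D) and without it in grey (Ctrl, DOX, DPD), each pair of groups sharing a drug, and bars are means of 2 libraries. Hba-a1 in DPD replicate 2, at 7.8 CPM, lies beside the R+D libraries, whereas Serpina3g separates each conjugate pair from its counterpart.

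Of 30 interferon gamma response genes, all tested, 26 were higher with the conjugate in all 3 drug settings and 0 lower, beside 25.6% and 24.1% of all genes. Leaving out 1 library at a time gave 19 to 28 of the 30. With R+X and R+D exchanged, whose reading rests on the letter X, it was 0 of the 30. In edgeR 0 of the 30 passed (0% of all genes did), and 27 had an unadjusted p under 0.05 on the higher side, beside 10.6% of all genes. DESeq2 called 17 of them, against 2.02% of all genes on that side. The median log2 fold change was 0.71 against 0.03 for all genes, with medians of 1.43 in RP minus Ctrl, 0.36 in R+X minus DOX and 0.39 in R+D minus DPD.

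Ido1, which encodes the tryptophan-degrading enzyme IDO1, had the largest difference of the list. It measured 8.62 and 5.37 CPM in RP against 1.67 and 1.18 CPM in Ctrl, 3.77 and 2.28 CPM in R+X against 1.17 and 1.5 CPM in DOX, and 9.73 and 4.05 CPM in R+D against 2.79 and 4.46 CPM in DPD. One R+D library lay below one DPD library, so the groups overlapped in that setting, and the log2 fold change was 1.45 ± 0.30 (SE, edgeR adjusted p = 0.185).

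Gbp2, a guanylate-binding protein gene of defence inside the cell, stood at 676 and 899 CPM in RP against 242 and 207 CPM in Ctrl, at 346 and 216.9 CPM in R+X against 178 and 221 CPM in DOX, and at 505 and 562 CPM in R+D against 324 and 399.5 CPM in DPD. In the DOX setting the pairs overlapped, and the RP libraries were the highest of the 12. The log2 fold change was 0.95 ± 0.22 for Gbp2, 1.31 ± 0.32 for its relative Gbp4 and 0.87 ± 0.21 for Ubd, which encodes a ubiquitin-like modifier (SE, edgeR adjusted p = 0.185 for each).

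The T cell attracting chemokines Cxcl9 and Cxcl10 had log2 fold changes of 0.52 ± 0.22 and 0.55 ± 0.18. Cxcl9 differed by only 0.047 in the DPD setting, where R+D held 113 and 48.6 CPM against 79.3 and 77.6 CPM in DPD. The edgeR adjusted p was 0.215 for Cxcl9 and 0.188 for Cxcl10.

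Cd274, the gene of PD-L1 to which the antibody of the conjugate binds, had a lowest, median and highest level of 24.7, 33.9 and 70.9 CPM with the conjugate, against 14, 22.8 and 34.9 CPM without it. Its log2 fold changes were 1.52 in RP minus Ctrl, 0.44 in R+X minus DOX and 0.11 in R+D minus DPD, and 0.69 ± 0.23 over all 12 libraries (SE, edgeR adjusted p = 0.188). Ifng itself was low, at 0.574 to 1.9 CPM (median 1.19) with the conjugate and 0.276 to 1.22 CPM (median 0.757) without it. It did not share a sign across settings, with 1.12 in RP minus Ctrl, -0.082 in R+X minus DOX and 0.92 in R+D minus DPD.

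**Figure D2:**
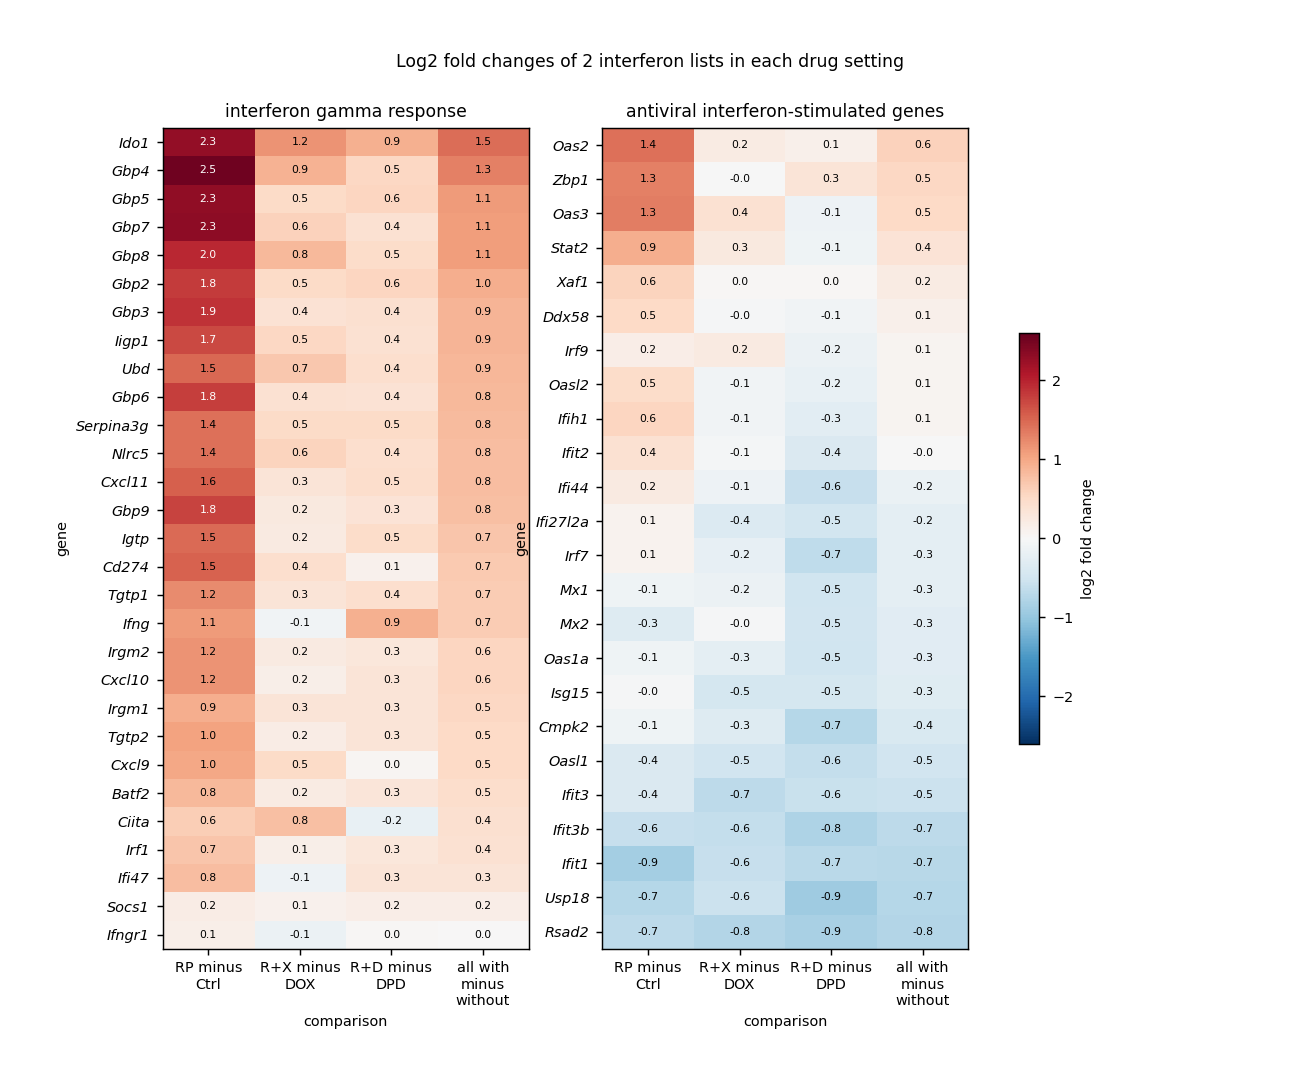
Log2 fold changes of 29 of the 30 interferon gamma response genes and of 24 antiviral interferon-stimulated genes, one row a gene, in RP minus Ctrl, R+X minus DOX, R+D minus DPD and over all 12 libraries. Red is higher and blue lower with the conjugate, on a scale that ends at 2.6 units. In the gamma list Ido1 and Gbp4 stand at the top with 1.45 and 1.31 over all libraries, and in the antiviral list Rsad2 stands at the bottom with -0.77.

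Antiviral interferon-stimulated genes were divided, with more members on the lower side. Of 24 tested, 2 were higher and 11 lower in all 3 settings, beside 25.6% and 24.1% of all genes, and the median was -0.25. Of these, 0 passed in edgeR, and DESeq2 called 2 lower, Usp18 and Ifit1, beside 1.83% of all genes. With the mean level of the muscle list as a covariate the median was -0.047, with 4 higher and 7 lower. Without DOX replicate 2 or RP replicate 2 the number lower in all 3 settings was 6, and without R+X replicate 1 the number higher was 0. The setting medians were 0.09, -0.14 and -0.48 in RP minus Ctrl, R+X minus DOX and R+D minus DPD.

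Usp18, a brake on type I interferon signalling, measured 8.42 and 7.86 CPM in RP against 15.6 and 11.6 CPM in Ctrl, 10.7 and 9.58 CPM in R+X against 13.3 and 16.5 CPM in DOX, and 11.8 and 5.62 CPM in R+D against 19.7 and 13.5 CPM in DPD. Every conjugate pair lay below its counterpart. The log2 fold change was -0.74 ± 0.18 (SE, edgeR adjusted p = 0.185), and with the muscle list as a covariate it was -0.39.

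Ifit1, an RNA-binding antiviral gene whose 2 ISRE core matches are printed above, ranged over 12.2 to 28.9 CPM (median 15.9) with the conjugate and 18.9 to 45.1 CPM (median 28.4) without it. Its differences were close to each other in the 3 settings, at -0.88 in RP minus Ctrl, -0.61 in R+X minus DOX and -0.70 in R+D minus DPD. Rsad2, which encodes the antiviral enzyme viperin, had log2 fold changes of -0.68 in RP minus Ctrl, -0.77 in R+X minus DOX and -0.85 in R+D minus DPD, and Oas1a, a sensor of double-stranded RNA, -0.12 in RP minus Ctrl, -0.26 in R+X minus DOX and -0.52 in R+D minus DPD. Over all libraries the values were -0.73 ± 0.24 for Ifit1, -0.77 ± 0.28 for Rsad2 and -0.30 ± 0.11 for Oas1a (SE, edgeR adjusted p from 0.188 to 0.195). With the muscle covariate they were -0.31 for Ifit1, -0.27 for Rsad2 and -0.31 for Oas1a. Libraries overlapped between the groups for all 3 genes.

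Antigen presentation was mixed. Of 21 tested genes of MHC class I presentation, 8 were higher and 6 lower in all 3 settings, with a median of 0.039, with 4 higher without R+D replicate 2, 5 without DOX replicate 2, DPD replicate 1 or R+X replicate 1, and 3 lower without DOX replicate 1. With the muscle covariate 2 were higher and 12 lower, with a median of -0.19, and Tap1 had 0.21 and Tapbp 0.15. Tap1, which pumps peptides into the endoplasmic reticulum, had log2 fold changes of 0.81 in RP minus Ctrl, 0.36 in R+X minus DOX and 0.11 in R+D minus DPD and 0.43 ± 0.14 over all libraries, and Tapbp, which tethers class I molecules to the transporter, 0.30 ± 0.11 (SE, edgeR adjusted p = 0.189 and 0.196). Among 11 genes of MHC class II presentation, 0 were higher and 1 lower in all 3 settings, with a median of -0.20, and without DOX replicate 2 there were 6 lower. Cd74, the invariant chain, differed in sign between settings, with -0.27 in RP minus Ctrl, 0.25 in R+X minus DOX and -0.46 in R+D minus DPD.

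Markers of lymphocytes leaned to the higher side, most in RP minus Ctrl. For T cells 16 of 22 tested markers were higher in all 3 settings and 0 lower, for cytotoxic effectors and NK cells 18 of 24 and 0, and for regulatory T cells 7 of 10 and 0, beside 25.6% and 24.1% of all genes. In edgeR 0 of them passed. DESeq2, which called 2.02% of all genes higher, called 4 T cell, 6 cytotoxic and 1 regulatory T cell marker higher. The counts in all 3 settings were 9 for T cells without R+X replicate 1, 11 for cytotoxic effectors without R+D replicate 2, and 3 for regulatory T cells without DPD replicate 1 or 4 without RP replicate 1 or R+D replicate 2. With R+X and R+D exchanged, the T cell and cytotoxic counts fell further, as given below. Medians were 0.63, 0.67 and 0.77 on the log2 scale. The T cell median was 1.30 in RP minus Ctrl, 0.26 in R+X minus DOX and 0.41 in R+D minus DPD.

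Prf1, which encodes the pore-forming perforin, measured 19 and 36.9 CPM in RP against 8.95 and 6.29 CPM in Ctrl, 13.6 and 11.6 CPM in R+X against 9.68 and 6.56 CPM in DOX, and 14.8 and 28.4 CPM in R+D against 10.3 and 12.7 CPM in DPD. Each conjugate pair lay above its counterpart, and the log2 fold change was 1.14 ± 0.25 (SE, edgeR adjusted p = 0.185). Granzyme genes, whose proteases enter target cells through that pore, had log2 fold changes of 0.93 ± 0.26 for Gzmb and 0.90 ± 0.27 for Gzmf. Gzmk was near the limit of detection, at 0.0383 to 0.95 CPM (median 0.401) with the conjugate and 0 to 0.177 CPM (median 0.0687) without it.

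Among T cell markers, the co-stimulatory receptor gene Cd27 ranged over 0.642 to 1.77 CPM (median 1.37) with the conjugate and 0.324 to 1.08 CPM (median 0.566) without it, with log2 fold changes of 1.43 in RP minus Ctrl, 0.80 in R+X minus DOX and 0.69 in R+D minus DPD. The receptor-proximal kinase gene Zap70 had 0.73 ± 0.18, the co-stimulatory receptor gene Icos 1.17 ± 0.36 and Cd5, a receptor that dampens signalling, 0.87 ± 0.27 (SE, edgeR adjusted p from 0.185 to 0.188). The co-receptors were less separated, with 0.46 ± 0.24 for Cd8a and 0.47 ± 0.38 for Cd4. Cd4 had 1.39 in RP minus Ctrl, -0.41 in R+X minus DOX and 0.37 in R+D minus DPD, so its sign was not shared.

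Of regulatory T cell markers, Tnfrsf18 (the receptor GITR) had log2 fold changes of 1.81 in RP minus Ctrl, 0.69 in R+X minus DOX and 0.27 in R+D minus DPD, Ikzf4 (the transcription factor Eos) 1.42 in RP minus Ctrl, 1.10 in R+X minus DOX and 0.34 in R+D minus DPD and Il2ra (the high-affinity interleukin 2 receptor chain) 1.65 in RP minus Ctrl, 0.13 in R+X minus DOX and 0.33 in R+D minus DPD. Foxp3, which defines the lineage, did not share a sign and had 1.87 in RP minus Ctrl, -0.047 in R+X minus DOX and -0.52 in R+D minus DPD. Ctla4, an inhibitory receptor, ranged over 0.363 to 2.26 CPM (median 1.32) with the conjugate and 0.432 to 1.3 CPM (median 0.557) without it, with 0.90 ± 0.39 over all libraries. DPD replicate 2 was the highest library without the conjugate for Foxp3, Ctla4, Tnfrsf18, Ikzf4 and Il2ra.

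Checkpoint receptors and ligands had 8 of 16 tested genes higher and 1 lower in all 3 settings, with a median of 0.40. Pdcd1, the gene of PD-1, measured 1.59 to 6.19 CPM (median 3.97) with the conjugate and 2.23 to 3.81 CPM (median 3.04) without it, with a log2 fold change of 0.36 ± 0.21 (SE, edgeR adjusted p = 0.321). Havcr2, the gene of the inhibitory receptor TIM-3, had 0.92 in RP minus Ctrl, 0.49 in R+X minus DOX and 0.30 in R+D minus DPD in the 3 settings. Lgals9, which encodes its ligand galectin-9, was the gene on the lower side, with -0.46 in RP minus Ctrl, -0.35 in R+X minus DOX and -0.45 in R+D minus DPD and with 5 of 6 conjugate libraries between 67.7 and 73.7 CPM. DESeq2 called Havcr2 higher and Lgals9 lower, beside 2.02% and 1.83% of all genes. The 8 became 3 without DPD replicate 1, and leaving out R+X replicate 1 or R+D replicate 2 made it 5.

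Muscle and lymphocyte transcripts were high in some of the same libraries. The T cell list summed to 179 and 166 CPM in RP and 129 and 168 CPM in R+D, and the muscle list to 432 and 212 CPM in RP and 133 and 526 CPM in R+D. Under the muscle covariate the median was 0.15 for T cells, 0.28 for cytotoxic effectors and 0.60 for the interferon gamma list, with 9 of 22, 7 of 24 and 23 of 30 genes higher in all 3 settings. Single genes had 0.75 (Prf1), 0.54 (Gzmb), 0.44 (Gzmf), 0.49 (Icos), 0.34 (Zap70), 0.025 (Cd8a), 0.47 (Ubd) and 0.83 (Cxcl9). Without RP replicate 1 and R+D replicate 2, an alternative chosen after seeing the data, those medians were 0.34, 0.53 and 0.69.

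Skeletal muscle genes had the highest median of the 30 lists. Of 22 tested, 18 were higher and 0 lower in all 3 settings, with a median of 2.10 on the log2 scale. Of these 0 passed in edgeR, and DESeq2 called 16 higher, beside 2.02% of all genes. The summed level was 101 to 526 CPM (median 172) in libraries with the conjugate, against 89.3 to 149 CPM (median 123) without it. Both RP libraries and R+D replicate 2 lay above every library without the conjugate, and the other 3 conjugate libraries lay within their range. R+X, at 118 and 101 CPM, overlapped DOX at 134 and 89.3 CPM.

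Myh2, a myosin heavy chain gene of fast fibres, was one of the genes with all 6 conjugate libraries above the rest. It ranged over 0.404 to 4.41 CPM (median 0.657) with the conjugate and 0 to 0.314 CPM (median 0.0991) without it, and its log2 fold changes were 3.71 in RP minus Ctrl, 3.91 in R+X minus DOX and 3.63 in R+D minus DPD. Myh4, the heavy chain of the fastest fibres, and Ckm, muscle creatine kinase, reached 42.7 and 37.5 CPM in R+D replicate 2 and at most 1.00 and 2.28 CPM in any library without the conjugate. In edgeR with the muscle score as a covariate, 496 genes were higher and 475 lower at an unadjusted p under 0.05. The smallest adjusted p in that fit was 0.681. Its log2 fold changes were 0.93 for Gja4, 0.97 for Mb, 0.70 for Serpina3g, 0.53 for Cdc7 and 0.44 for Wdr90. For Hba-a1 the value was -2.45. Mb is itself a member of the muscle list, so its own level entered the score. The mean log2 CPM of that list was 3.55 and 2.19 in RP, 0.406 and -0.216 in R+X and 0.724 and 3.90 in R+D. Its highest value without the conjugate was 0.655, in Ctrl replicate 1. Score and conjugate were therefore partly aligned, and the fit cannot fully separate them. Tissue taken along with the tumour was not recorded in the labels, and its part in the other differences was not tested.

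**Figure D3:**
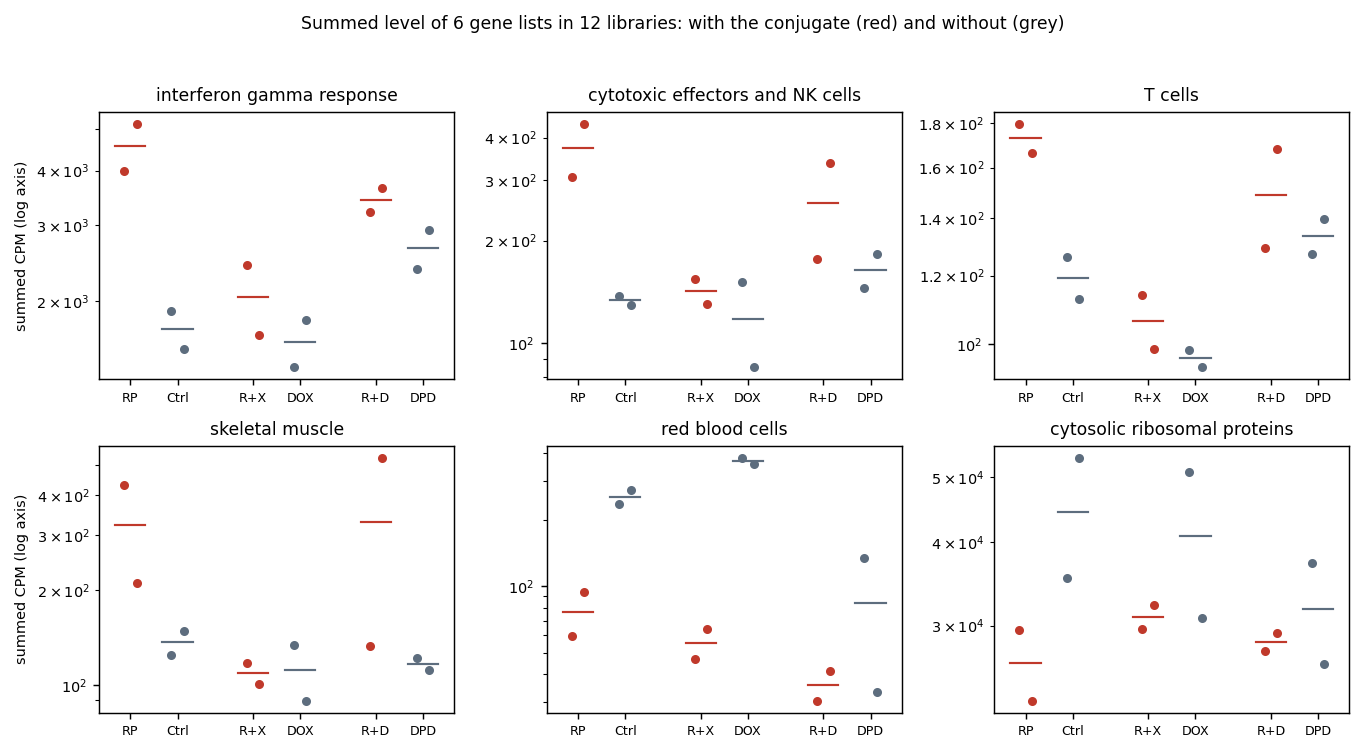
Summed level in CPM (log axis) of 6 gene lists in the 12 libraries, with the conjugate in red and without it in grey, and bars for means of 2 libraries. Muscle sums are high in RP replicate 1 (432 CPM) and R+D replicate 2 (526 CPM), and the red blood cell sum is low in DPD replicate 2 (33.1 CPM).

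Other immune lists gave smaller shares. Neutrophil markers had 6 of 17 tested genes higher and 1 lower in all 3 settings, dendritic cell markers 4 and 1 of 18, macrophage and monocyte markers 1 and 5 of 24, B and plasma cell markers 3 and 3 of 10, and mast cell markers 1 and 0 of 7. The neutrophil count was 1 without DOX replicate 1, and it was 3 when DPD replicate 1, R+X replicate 1 or R+D replicate 2 was left out. The 5 macrophage genes became 1 without DOX or DPD replicate 1, and the 3 B cell genes on the lower side became 1 without DPD or R+D replicate 1. The medians of the 5 lists were 0.24, 0.29, 0.068, 0.45 and 0.066. Leaving out 1 library moved the neutrophil median between 0.023 (without Ctrl replicate 2) and 0.65 (without DOX replicate 2), and the B cell median between 0.22 (without DOX replicate 1) and 0.91 (without DPD replicate 2). The dendritic cell median was 0.14 without RP replicate 1. The macrophage median lay between -0.0084 (without RP replicate 2) and 0.12 (without R+D replicate 1), and the mast cell median between -0.20 (without RP replicate 1) and 0.31 (without R+X replicate 2), with 0 to 5 mast cell genes higher and 0 to 2 lower in all 3 settings. With the muscle covariate the 5 medians were 0.16, -0.018, -0.0065, -0.065 and -0.67. Mmp9, a matrix protease of neutrophils and macrophages, was the neutrophil gene on the lower side, with a lowest, median and highest level of 17.3, 20.8 and 23.8 CPM with the conjugate, against 15.8, 41.3 and 56 CPM without it. Its log2 fold changes were -1.11 in RP minus Ctrl, -1.11 in R+X minus DOX and -0.23 in R+D minus DPD, so the difference in the DPD setting was the smallest. Csf3r, the G-CSF receptor of neutrophils, had 2.20 in RP minus Ctrl, 0.17 in R+X minus DOX and 0.10 in R+D minus DPD.

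Zbtb46, a transcription factor of conventional dendritic cells, had all 6 conjugate libraries above the rest, at 11.2 to 16.1 CPM (median 12.1) with the conjugate and 7.43 to 11.2 CPM (median 9.59) without it. The closest values were 11.2 CPM in R+X and 11.2 CPM in DOX, and the log2 fold change was 0.42 ± 0.12 (SE, edgeR adjusted p = 0.185). Xcr1, the chemokine receptor of cross-presenting dendritic cells, had 0.98 ± 0.35 and Ccr7, which guides dendritic and T cells to lymph nodes, 0.87 ± 0.30. In the B cell list, the kinase gene Blk was above in all 6 libraries but low, at 0.124 to 1.3 CPM (median 0.281) with the conjugate and 0 to 0.118 CPM (median 0.0563) without it. Jchain, the joining chain of secreted antibody, ranged over 0.478 to 23.2 CPM (median 9.47) with the conjugate and 0.243 to 10.7 CPM (median 1.64) without it and was highest in RP and R+D replicate 2, while Xbp1, a factor of secretory cells, had -0.77 in RP minus Ctrl, -0.27 in R+X minus DOX and -0.25 in R+D minus DPD. With the muscle covariate Xcr1 had 0.35, Ccr7 0.56 and Jchain 0.62, the last in place of 1.82.

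Endothelial markers had 3 of 20 higher and 1 lower in all 3 settings and a median of 0.12, and without DOX replicate 1 there were 6 higher. Gja5, a connexin of arterial endothelium and heart, ranged over 0.708 to 5.61 CPM (median 1.27) with the conjugate and 0.302 to 1.36 CPM (median 0.685) without it with the highest values in the 2 muscle-rich libraries, and had a log2 fold change of 0.12 with the muscle score as a covariate. Vwf, the clotting factor of endothelium and platelets, had 0.60 ± 0.20, and 0.22 with that covariate. The endothelial median was then -0.03. For fibroblasts and matrix 5 of 20 were higher and 7 lower, with a median of 0.061, and without DPD replicate 1 there were 3 higher and 4 lower.

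Matrix genes made up the lower side of that list. Mmp2, a gelatinase of fibroblasts, measured 871 and 932 CPM in RP against 1608 and 1411 CPM in Ctrl, 1271 and 1569 CPM in R+X against 1917 and 1612 CPM in DOX, and 995 and 1012 CPM in R+D against 1463 and 1087 CPM in DPD. The 3 conjugate pairs lay below their counterparts. The log2 fold change was -0.47 ± 0.11 for Mmp2, -0.38 ± 0.10 for the collagen VI gene Col6a1, -0.40 ± 0.11 for the matrix glycoprotein gene Sparc and -0.41 ± 0.12 for the collagen III gene Col3a1 (SE, edgeR adjusted p = 0.185 for each). All 4 were called lower by DESeq2, which called 1.83% of all genes lower. With 1 library left out at a time, the farthest values came without DPD replicate 2, at -0.55 for Mmp2, -0.46 for Col6a1, -0.48 for Sparc and -0.51 for Col3a1. The nearest to no change were -0.41 for Mmp2 and -0.32 for Col6a1, without Ctrl replicate 1. For Sparc and Col3a1 they were -0.33 each, without DPD replicate 1.

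Skin and hair keratinocyte markers had 2 of 20 higher and 0 lower in all 3 settings, adipocyte markers 3 and 2 of 10, and red blood cell markers 0 and 6 of 7, of which 1 was lower without DPD replicate 1. Without RP replicate 2 there were 8 keratinocyte genes lower. Colon carcinoma and epithelial markers had 12 of 20 tested, of which 3 were higher and 1 lower in all 3 settings. The keratin genes Krt8 and Krt18 and the intestinal factor gene Cdx2, which define colon epithelium, were below the count filter, and the list summed to 20.3 to 32.1 CPM (median 25.8) in libraries with the conjugate, against 23.2 to 28.9 CPM (median 26.7) without it. The labelled origin of the line could therefore be checked only against few and low epithelial transcripts.

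Genes of protein synthesis and respiration lay on the lower side. Of 24 cytosolic ribosomal protein genes, 23 were lower in all 3 settings and 0 higher, with a median of -0.44. In edgeR 0 passed, and 18 had an unadjusted p under 0.05 on the lower side, beside 10.4% of all genes. Rplp0, of the ribosomal stalk, measured 2469.9 and 1934 CPM in RP against 3053 and 4665 CPM in Ctrl, 2521 and 2769.7 CPM in R+X against 4368 and 2911 CPM in DOX, and 2333 and 2461 CPM in R+D against 3200.3 and 2219 CPM in DPD. DPD replicate 2 lay below both R+D libraries, and Ctrl replicate 2 was the highest of the 12. It had log2 fold changes of -0.81 in RP minus Ctrl, -0.46 in R+X minus DOX and -0.18 in R+D minus DPD.

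For oxidative phosphorylation 19 of 24 genes were lower and 0 higher in all 3 settings, with a median of -0.35. Uqcrc1 of complex III had a log2 fold change of -0.36 ± 0.11 and Sdhb of complex II -0.43 ± 0.15 (SE, edgeR adjusted p = 0.185 and 0.189). These counts moved with single libraries. Without DPD replicate 1 there were 2 ribosomal and 6 respiratory genes lower in all 3 settings, and without DOX replicate 1 there were 11 and 7.

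Short transcripts leaned the same way as these lists. Across 16252 tested genes with an annotated transcript length (83.2%), the log2 fold change and the length had a Spearman correlation of 0.34, and of 0.34 in RP minus Ctrl, 0.31 in R+X minus DOX and 0.15 in R+D minus DPD. The genes share libraries and depth, so the values are descriptions. The part of transcript length in the lower ribosomal, respiratory and haemoglobin values, or in the higher values of other genes and lists, was not tested.

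Stress lists differed in part. Of 21 genes of ER stress and the integrated stress response, 13 were lower and 1 higher in all 3 settings, with a median of -0.21, and without DOX replicate 1 there were 6 lower. Herpud1, which helps to clear misfolded proteins, had -0.79 in RP minus Ctrl, -0.12 in R+X minus DOX and -0.21 in R+D minus DPD, and the chaperone gene Hspa5 -0.32 in RP minus Ctrl, -0.057 in R+X minus DOX and -0.25 in R+D minus DPD. NRF2 and glutathione genes had 7 of 18 lower (3 without DPD replicate 1) and 1 higher, with log2 fold changes of -0.53 ± 0.13 for the quinone reductase gene Nqo1, -0.34 ± 0.12 for the ferritin gene Fth1 and -0.52 ± 0.19 for the lipid peroxide reductase gene Gpx4. In the hypoxia and glycolysis list 7 of 21 were lower (2 without DOX replicate 1) and 5 higher (0 without DPD replicate 1). Glycolytic Gapdh and Aldoa had -0.30 ± 0.12 and -0.36 ± 0.14, whereas Hk2, the hexokinase at the entry of glycolysis, had 0.38 ± 0.12.

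Proliferation and repair genes leaned higher by small amounts. Of 26 cell cycle genes, 16 were higher and 2 lower in all 3 settings with a median of 0.13, and of 25 DNA repair genes 19 were higher and 2 lower with a median of 0.26. The shares over all genes were 25.6% higher and 24.1% lower. DESeq2, which called 2.02% of all genes higher, called 3 cell cycle genes higher, Mki67, Top2a and Rrm2, and 4 repair genes, Fanca, Brca2, Rad54l and Palb2. Top2a, the topoisomerase II that doxorubicin poisons, ranged over 708 to 1069 CPM (median 840.1) with the conjugate and 510.1 to 849 CPM (median 604) without it, with log2 fold changes of 0.80 in RP minus Ctrl, 0.32 in R+X minus DOX and 0.20 in R+D minus DPD. Mki67, a marker of cycling cells, had 0.65 ± 0.20, the nucleotide reductase gene Rrm2 0.35 ± 0.088 and the S phase factor gene E2f1 0.29 ± 0.087 (SE, edgeR adjusted p = 0.185 for Top2a, Mki67, Rrm2 and E2f1).

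Palb2, which brings BRCA2 to DNA breaks, was another gene with all 6 conjugate libraries above the rest. It measured 11 and 13.4 CPM in RP against 9.64 and 7.8 CPM in Ctrl, 9.81 and 10.3 CPM in R+X against 5.36 and 9.07 CPM in DOX, and 11.5 and 11.3 CPM in R+D against 7.55 and 9.55 CPM in DPD. Its log2 fold changes of 0.48 in RP minus Ctrl, 0.48 in R+X minus DOX and 0.42 in R+D minus DPD were of like size. Brca2 had 0.46 ± 0.14, the Fanconi anaemia gene Fanca 0.41 ± 0.11 and the recombination motor gene Rad54l 0.36 ± 0.10 (SE, edgeR adjusted p = 0.185 for each). Without DPD replicate 1 there were 8 repair and 10 cell cycle genes higher in all 3 settings, and without DOX replicate 1 there were 12 repair genes.

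Targets of p53 had 2 of 25 genes higher and 6 lower in all 3 settings, with a median of 0.013, and 2 lower without DPD replicate 1. Cdkn1a, the cell cycle inhibitor p21, measured 72.4 to 93.4 CPM (median 85.8) with the conjugate and 65.9 to 105 CPM (median 91.1) without it, with a log2 fold change of -0.076 ± 0.11 (SE, edgeR adjusted p = 0.691). Phlda3, a p53 target that restrains AKT, had -0.92 in RP minus Ctrl, -0.67 in R+X minus DOX and -0.37 in R+D minus DPD, and Trp53inp1, a p53 cofactor gene, 1.51 in RP minus Ctrl, 0.10 in R+X minus DOX and 0.44 in R+D minus DPD. Apoptosis and pyroptosis genes had 4 of 24 higher (7 without DPD replicate 2) and 4 lower (1 without DOX replicate 1), with a median of 0.027.

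Inflammatory cytokines and chemokines had 6 of 22 genes higher and 1 lower in all 3 settings, with a median of 0.26, and 3 higher without R+X replicate 1. Csf2, the gene of GM-CSF, was low at 0.172 to 1.88 CPM (median 1.2) with the conjugate and 0.132 to 0.929 CPM (median 0.511) without it and had log2 fold changes of 1.00 in RP minus Ctrl, 0.99 in R+X minus DOX and 1.34 in R+D minus DPD. The chemokine gene Ccl4 had 0.69 ± 0.22 and the cytokine gene Lif 0.51 ± 0.19 (SE, edgeR adjusted p = 0.188 and 0.193). With the muscle covariate the median was -0.11, and Ccl4 had 0.084.

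**Figure D4:**
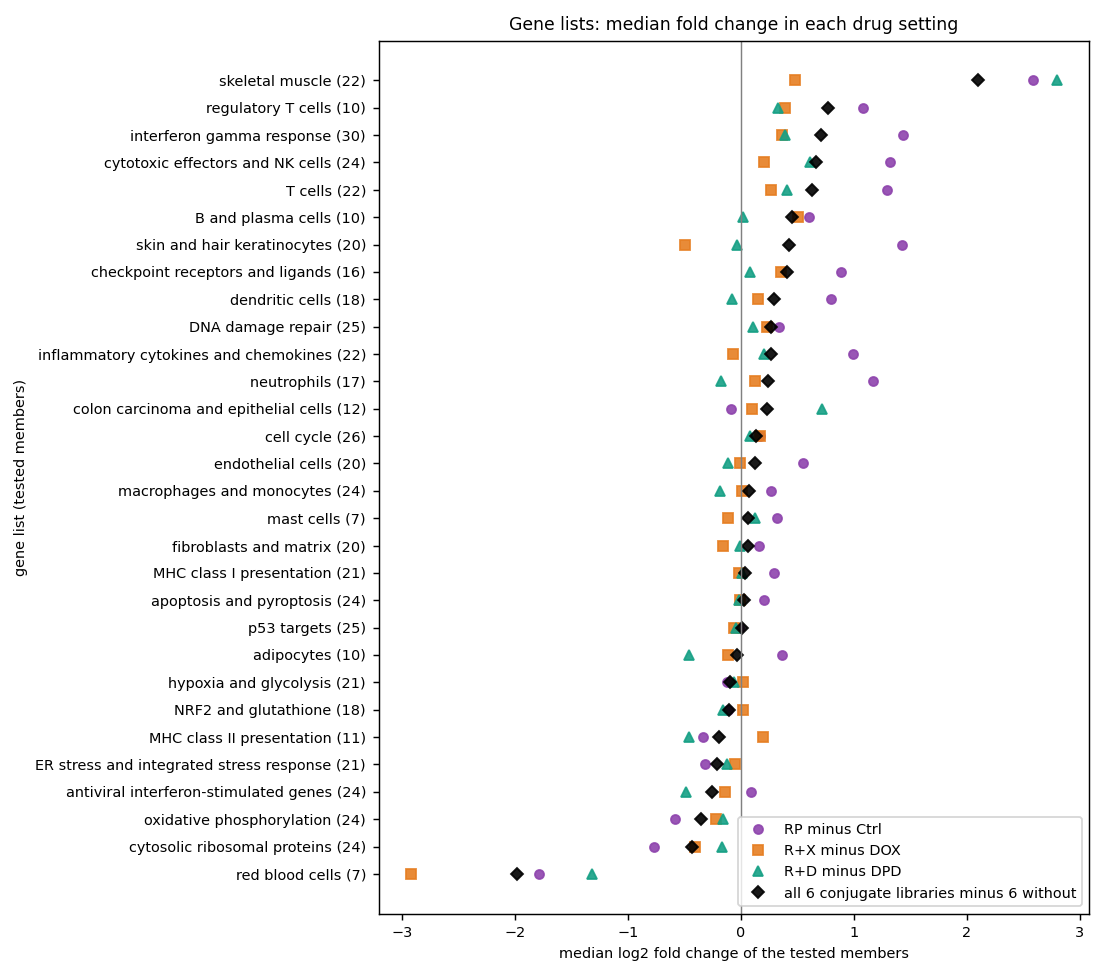
Median log2 fold change of the tested members of 30 gene lists in RP minus Ctrl, R+X minus DOX, R+D minus DPD and over all 12 libraries, with the number of tested members in brackets. Skeletal muscle stands at the top with 2.10 and red blood cells at the bottom with -1.99 over all libraries, and for T cells and the interferon gamma list RP minus Ctrl is the farthest to the right.

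Whether the difference with the conjugate varied between drug settings was tested by the interaction of conjugate and drug. The drug route changed with the conjugate in R+X minus DOX and R+D minus DPD, and not in RP minus Ctrl. The interaction therefore cannot tell a varying conjugate effect from an effect of route. In edgeR 0 of 19525 genes passed (0%), with a smallest adjusted p of 0.997 and 616 genes at an unadjusted p under 0.05 (3.15%), and the DESeq2 likelihood ratio test called 11, among them Serpina3g and Apol10b. The 3 genes of smallest interaction p in edgeR were Pakap, Plac8 and F13a1, and the DESeq2 test called them too. Its adjusted p was 3.63e-07 for Pakap and 0.00045 for each of Plac8 and F13a1. Pakap, which spans overlapping gene models of an A kinase anchor protein and a paralemmin, stood at 24.9 and 30.5 CPM in RP against 1.41 and 1.07 CPM in Ctrl, with 35.9 and 28.4 CPM in R+X against 29.5 and 45.3 CPM in DOX and 63.7 and 40.9 CPM in R+D against 20.9 and 94.8 CPM in DPD. It was low in Ctrl and not in the other groups. Plac8, a myeloid and lymphoid gene, had 1.69 in RP minus Ctrl, -0.51 in R+X minus DOX and 0.14 in R+D minus DPD, and F13a1, the clotting factor XIII A chain of macrophages, 2.00 in RP minus Ctrl, 0.19 in R+X minus DOX and 0.037 in R+D minus DPD.

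The contrast was smaller without RP and Ctrl. With those 4 libraries left out, 375 genes were higher and 199 lower at an unadjusted p under 0.05 of 18861 tested, with a smallest adjusted p of 0.94 in edgeR. The interferon gamma median was then 0.37 and the T cell median 0.31. Gja4 had a log2 fold change of 0.98, Serpina3g of 0.50 and Cdc7 of 0.52 in these 8 libraries. The haemoglobin gene Hba-a1 had -2.25. In these 8 libraries the drug route changed with the conjugate, and the part of the route was not tested.

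The reading of R+X and R+D bore on several counts of shared signs. With the 2 groups exchanged between the drug settings, 0 of 30 interferon gamma genes, 1 of 22 T cell genes and 2 of 24 cytotoxic genes were higher in all 3 settings, although the medians over all libraries were 0.72, 0.65 and 0.67. Ribosomal genes lower in all 3 settings then numbered 19 of 24 and red blood cell genes 6 of 7. Over all genes the shares of shared signs were 19.7% higher and 18.8% lower under the exchange. R+X was then set beside DPD, where Gja4 had 10.1 and 6.56 CPM against 9.15 and 12.8 CPM. Serpina3g had 60.2 and 53 CPM against 70.2 and 69 CPM, and Ociad2 20.7 and 21.7 CPM against 21.1 and 17.8 CPM. By group means, Gja4 and Serpina3g were then lower and Ociad2 higher with the conjugate, so their signs were not shared. Cdc7 stayed higher, at 24.1 and 26.5 CPM against 18 and 26.6 CPM.

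The number of genes that passed depended on the model and on DPD replicate 2. The 6 group means fit in edgeR called 3 genes higher (0.0154%), Apol10b, Gja4 and Serpina3g, and 0 lower. Apol10b, an apolipoprotein L family gene whose counts may hold reads of relatives, ranged over 9.01 to 25 CPM (median 18.8) with the conjugate and 5.43 to 15 CPM (median 7.56) without it, with log2 fold changes of 1.69 in RP minus Ctrl, 0.69 in R+X minus DOX and 0.46 in R+D minus DPD. Of the 394 genes that DESeq2 called higher, 152 (38.6%) were also among the 240 (63.3%) that edgeR called without DPD replicate 2, and on the lower side 181 of 358 (50.6%) were among 241 (75.1%).

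**Figure D5:**
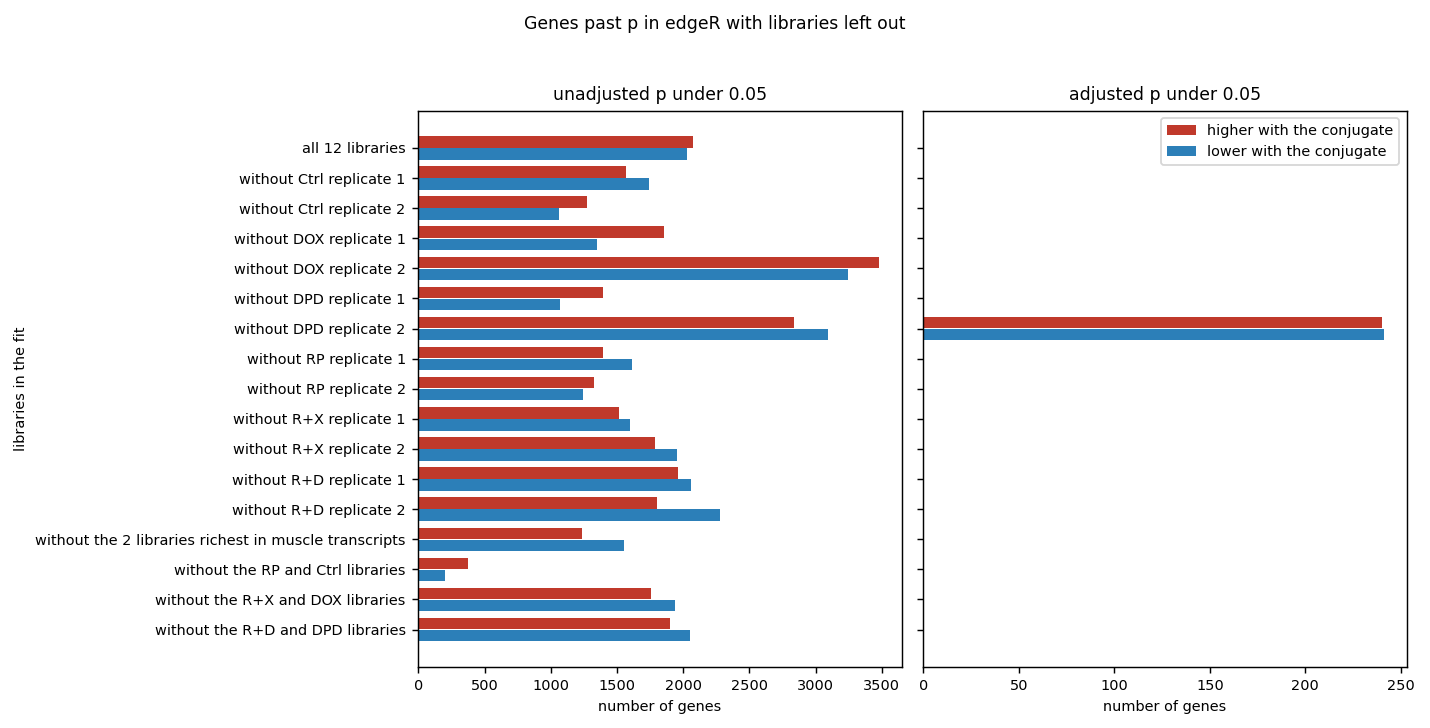
Number of genes past an unadjusted p under 0.05 (left) and an adjusted p under 0.05 (right) in edgeR, with all 12 libraries or with libraries left out. Red bars are genes higher and blue bars genes lower with the conjugate. Adjusted calls appear only without DPD replicate 2, with 240 higher and 241 lower, and unadjusted calls are fewest without RP and Ctrl, with 375 and 199.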

How the data were processed

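RNA-seq counts of 12 MC38 tumour libraries were analysed. TRIzol was used to extract total RNA and a NEBNext Ultra kit to prepare libraries, per the labels' protocols. HISAT2 2.1.0, StringTie 1.3.5, DESeq2 and the genome build GRCm38 are listed, per the submitters' processing notes. The role of each tool, the annotation and the use of strand were not given there, so a gene and its antisense or overlapping partner may share reads. The authors deposited raw gene counts in whole numbers, in a table of 43698 rows and 42803 gene names. The columns of that table matched the 12 separate library files exactly. Groups came from the agent label, and replicate numbers only name libraries, since the labels number none.

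In R 4.3.3, edgeR 4.0.16 was fitted with drug (none, DOX, DPD) and conjugate as terms, scaled by TMM and filtered by filterByExpr to 19525 genes, with 8 residual degrees of freedom. The threshold was an adjusted p under 0.05 (Benjamini-Hochberg). A fit of 6 groups gave the fold changes of the 3 drug settings, and a fit with interaction terms tested whether they differed. Leading genes had a mean of at least 1 CPM, the same sign in all 3 settings and a symbol that is no predicted gene. Since 0 were called, the 5 of smallest p each way were named. Up to 4 members per list, a fixed panel, and 3 genes of smallest interaction p were named beside them. The list members had the same sign in all 3 settings but no lower limit of CPM, and the fixed panel had neither filter. The interaction genes had the limit of 1 CPM and no sign filter. Genes outside these rules are named where a count is 5 or fewer or a list is checked, chosen after their values were seen. The members and the 30 gene lists were chosen with earlier results of these data known. Transcript lengths came from GENCODE vM21, and gene coordinates and promoters from RefSeq.

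On simulated counts for this comparison (19525 genes, 3 simulations), edgeR called 32.7% of genes changed 1.5-fold, 64% changed 2-fold, 83.3% changed 4-fold and 93.3% changed 8-fold. It also called 21 of 57975 unchanged genes. The simulated counts varied independently between genes, with an equal effect in the 3 drug settings. Shifts shared by many genes of a library were not simulated, so the rates may be higher than in the data. Hba-a1, with a log2 fold change of -2.10, was not called in the data. Alternatives were RLE scaling, no count filter, DESeq2 1.42.0, limma-voom (limma 3.58.1), 6 group means, no drug block, R+X and R+D exchanged, a muscle or skin score as a covariate, each library or drug setting left out, and name copies summed. Leaving out the 2 libraries richest in muscle transcripts was added after seeing the data. DESeq2 left adjusted p undefined for some low genes, which were not counted as called. Some genes that these rules named are not reported here.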

Additional observations from a re-analysis of the deposited data

Results flagged for a closer look

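In 17 of 238 groups of 6 libraries (single genes or list sums, with or without the conjugate), 1 library lay farther from the rest than Dixon's 95% limit for 6 values. Chance sets apart about 1 in 20 groups.

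Among libraries with the conjugate, RP replicate 1 was high for Cd74 (936.7 CPM, next 615 CPM), Oas1a (29.4 CPM, next 21.9 CPM) and Blk (1.3 CPM, next 0.38 CPM), and for the sums of MHC class II presentation (1754 CPM) and dendritic cell markers (856 CPM). RP replicate 2 was high for Brca2 (47.2 CPM), Fanca (135 CPM) and the neutrophil sum (117 CPM). R+D replicate 2 was low for Lgals9 (51.9 CPM, next 67.7 CPM), and R+D replicate 1 was high for Zbtb46 (16.1 CPM, next 12.8 CPM).

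Among libraries without the conjugate, DPD replicate 2 was high for the regulatory T cell genes Foxp3 (3.44 CPM, next 1.32 CPM), Ctla4 (1.3 CPM), Tnfrsf18 (7.03 CPM) and Il2ra (4.09 CPM), for Jchain (10.7 CPM, next 2.43 CPM) and for Hk2 (71.1 CPM). DOX replicate 2 was low for the macrophage and monocyte sum (2166 CPM, next 3038 CPM).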

How the results depend on the processing

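In place of 0 and 0, DESeq2 called 394 genes higher and 358 lower, of which 390 and 356 had the same sign in all 3 drug settings, and 11 genes for the interaction. The 6 group means fit called 3 higher, all 3 with the same sign in the 3 settings. Leaving out each library in turn gave 0 to 240 genes higher and 0 to 241 lower, and 0 to 240 each way with the same sign in all 3 settings, in each case the highest without DPD replicate 2. For the interaction it gave 0 to 1, with Pakap called without DPD replicate 1. All other alternatives run gave counts of 0 for the genes higher and lower.

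Signs turned for Ifng (-0.072), Cd4 (-0.67), Ctla4 (-0.020) and Plac8 (-0.11) with the muscle score as a covariate, for Cd4 (-0.14) without the 2 muscle-rich libraries, and for Cd4 (-0.0071), Foxp3 (-0.29), Pakap (-0.18) and Plac8 (-0.18) without RP and Ctrl. The cause was not tested. The other genes named with a fold change kept their direction in all alternatives. The median log2 fold change of all genes was 0.018 with RLE scaling and 0.03 with TMM.

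No paired analysis was possible because the labels number no replicates. Each drug setting had 2 libraries a side, and the simulations missed most 1.5-fold changes, so such changes were often not detectable here. Larger changes may have been missed as well. With 1 library left out, its mate stood alone and was taken to vary like the other groups.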
